A study of Salmo salar with 59 samples.

Results

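Hox genes were followed with 65 probes on 64 genes in testis, pituitary and adipose tissue of Atlantic salmon. A probe was counted as a Hox probe where its RefSeq transcript has a symbol starting with hox in the gene table of the assembly Ssal_v3.1, a rule that reads no measured value. The array held 42386 probes in all, and the table lists 91 hox genes, so that 27 of them had no probe assigned. Hox genes encode homeodomain transcription factors that sit side by side in clusters, and each gene carries a paralogue number given by its place in the cluster. In embryos, genes with low numbers (anterior) are switched on closer to the head and genes with high numbers (posterior) closer to the tail and the genital tract, and adult tissues often keep a Hox pattern that matches where in the body they were formed. Salmonids carry further copies of the clusters after a genome duplication in their ancestor, which is why names such as hoxc4aa end in stacked letters.

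The probes covered clusters on 12 chromosomes. Cluster A was represented on chromosomes 2, 14 and 27 with 18 probes, cluster B on chromosomes 3, 6 and 19 with 13 probes, cluster C on chromosomes 12, 13, 15 and 22 with 22 probes, and cluster D on chromosomes 21 and 25 with 12 probes. By number, 13 probes were on anterior genes (paralogues 1 to 3), 19 on central genes (4 to 8) and 33 on posterior genes (9 to 13). Duplicated copies are close in sequence, and to what extent a probe also binds the transcript of the sister copy was not tested. Gene hoxa10ab had 2 probes, one on transcript NM_001130855 and the other on transcript XM_014178301, and they are given apart.

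Tissues came from 20 fish reared for 18 weeks in brackish water under continuous light (group A), increasing light (group B) or decreasing light (groups D and E), the last with a low-fat diet. Testes of 6 fish were pubertal (184, 190 and 245 of group A, 202, 211 and 213 of group B, at labelled stages III to V), and testes of 14 fish were immature at stage I (2 of group A, 2 of group B, 5 of group D and 5 of group E), so decreasing light was never given to a pubertal fish. Pituitaries of the same 20 fish were hybridised, and adipose tissue of 6 pubertal and 12 immature fish, 1 fish and tissue per array, with the maturity of the fish taken from its testis. Fish 160 and 250 count as immature by this rule, although the paper holds that their endocrine state may class them as maturing. One more adipose array carries number 211 in group E, although fish 211 belongs to group B, and was put in no comparison. Levels are given as the log2 of the probe's signal relative to the 75th percentile of its array, so that 0 stands for that percentile. A probe is called well above background where the scanner software marked its spot so, and on arrays where it was not, the level is only an upper bound. In whole tissue, fewer cells of a type and less RNA per cell cannot be told apart.

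The share of all probes well above background was 65.6% to 86.6% on pubertal and 66.5% to 84.1% on immature testis arrays, 61.6% to 84.3% on pituitary arrays and 51.1% to 79.4% on adipose arrays. The library labelled pituitary of fish 184 stood apart. Its median correlation with the other pituitary arrays was 0.759, its summed level of pituitary markers was -0.14 against 10.48 to 11.46 on the other 19, and the hormone genes fshb (-6.30) and prl (-5.59) were close to the floor. On that array hoxa3ab was at -0.75 and hoxb6ab at -1.15, both above every other pituitary array, and the array was left out of the tests of maturity in the pituitary. Among adipose arrays, summed markers of the exocrine pancreas (prss1 and ela2) were 13.26, 11.21, 12.39 and 11.74 for fish 211 of group B, 250, 233 and 240, and between -0.82 and 10.19 on the other 15. The adipose array of fish 202 had summed testis somatic markers of 3.39 and germ cell markers of 4.55, against at most 0.68 and 0.86 on the other adipose arrays.

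Every Hox probe was well above background on at least 1 of the 59 arrays, and hoxb7ab and hoxb8ba, a pair of central cluster B genes, were so on all of them. On the median array, 29 of the 65 probes were detected in pubertal testes (16 to 49), against 51.5 in immature testes (37 to 59). The lowest count among pubertal testes, in fish 190, came from the testis array with the lowest share of all probes detected (65.6%), and the highest, in fish 202, from the array with the highest share (86.6%). Pubertal pituitaries without fish 184 had 12 (6 to 14) and immature pituitaries 13 (5 to 18). Pubertal adipose tissue had 31.5 (16 to 41) and immature adipose tissue 29 (20 to 38).

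**Figure D1:**
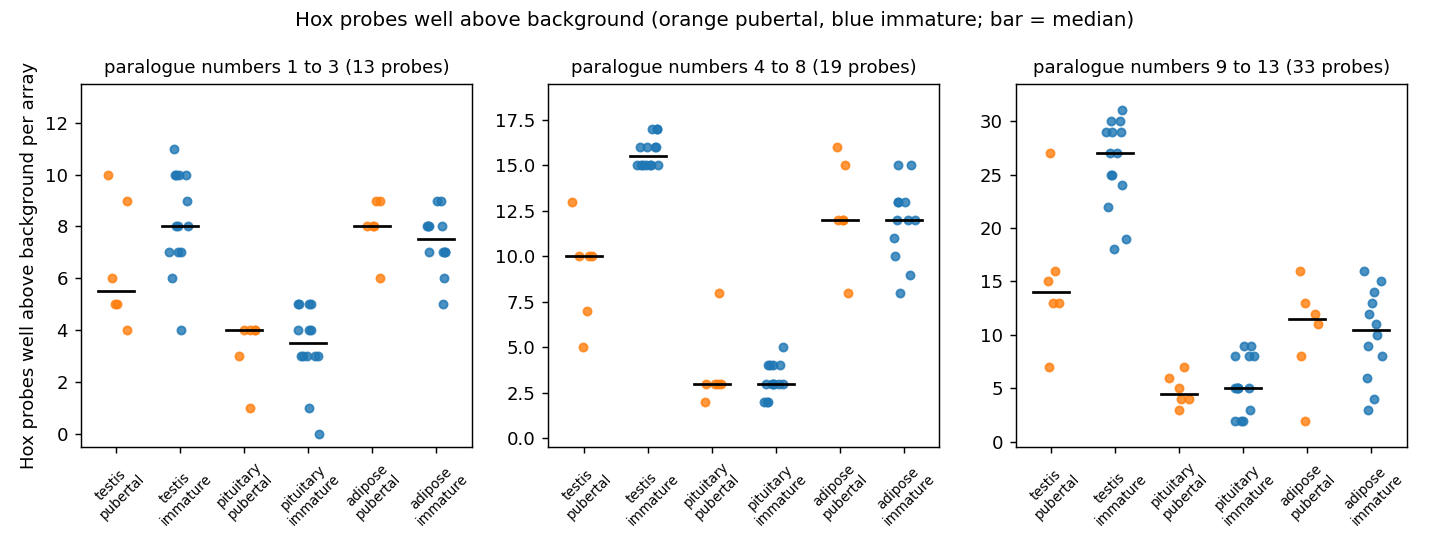
Number of Hox probes well above background on each array (vertical axis), by tissue and by paralogue region, with orange points for pubertal fish, blue points for immature fish and a bar at the median. For posterior genes the median was 14 of 33 probes in pubertal testes, 27 in immature testes, 5 in immature pituitaries and 10.5 in immature adipose tissue; the library labelled pituitary of fish 184 is among the pubertal pituitary points.

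The counts differed by paralogue region. The median immature testis detected 27 of 33 posterior probes, the median immature pituitary 5 and the median immature adipose sample 10.5. For anterior genes the medians were 8 of 13 in immature testis, 3.5 in immature pituitary and 7.5 in immature adipose tissue. Of the 65 probes, 17 were detected in every immature testis and in no immature pituitary: hoxa5a, hoxa5aa, hoxa9b, both probes of hoxa10ab, hoxa13aa, hoxb2ab, hoxb6aa, hoxb6ba, hoxb13ab, hoxc4aa, hoxc4ab, hoxc8aa, hoxd9ab, hoxd10a, hoxd11ab and hoxd12ab. The reverse was seen for none. In every immature testis and no immature adipose sample, 4 were detected, and all 4 are posterior, as are 33 of the 65: hoxa13, hoxa13aa, hoxb13ab and hoxd11ab. In every immature adipose sample and no immature pituitary, 5 were detected, all anterior or central: hoxa5a, hoxa5aa, hoxb2ab, hoxb6aa and hoxc5ba. How many of all probes on the array met the same rules was not counted. Immature adipose arrays had 55.1% to 77.6% of all probes well above background, and immature testis arrays 66.5% to 84.1%.

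**Figure D2:**
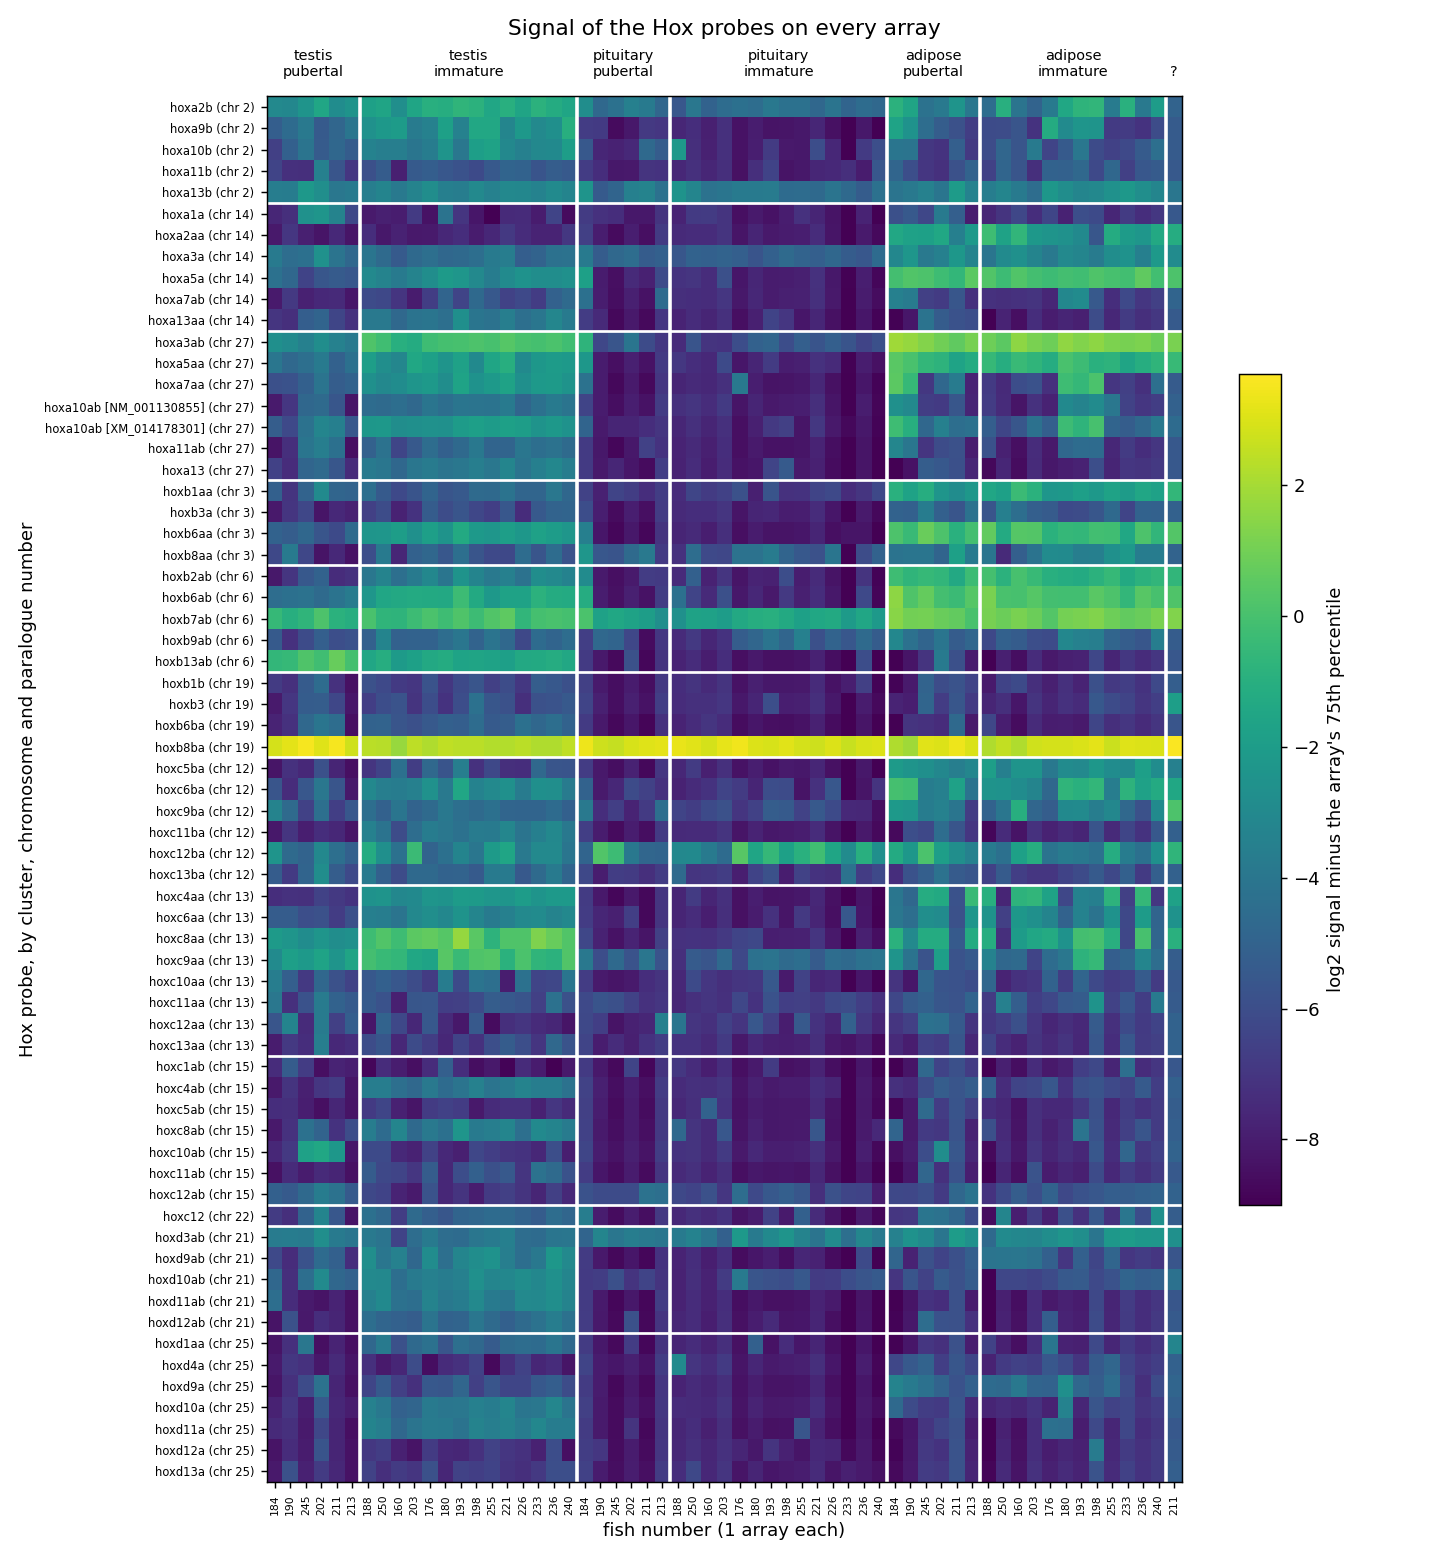
Levels of the 65 Hox probes (down the page, by cluster and chromosome) on all 59 arrays (across, by tissue, with pubertal fish left of immature fish), as log2 signal relative to the 75th percentile of the array; the question mark is the adipose array in no comparison. The 14 immature testes are brighter than the pituitary arrays for most probes, and the pituitary block is near the floor for all but a few probes, among them hoxb8ba, hoxb7ab, hoxa13b and hoxd3ab.

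Maturation of the testis was the first comparison, since the study asked what changes when salmon testes enter puberty. Of the 56 Hox probes that could be tested, 35 were lower and 4 were higher in pubertal than in immature testes (limma, called at an adjusted p below 0.05 with a difference above 0.8 on the log2 scale, which is 1.741-fold). Over all 35618 probes tested, 27.2% were lower and 31.9% higher by the same rule. A probe could enter the test through immature testes alone, but through pubertal testes alone only if all 6 detected it. Of the 35 lower Hox probes, 7 were well above background in no pubertal testis. In at least 3 of 6 pubertal and 7 of 14 immature testes, 17 of the 35 were well above background. The pubertal and immature testes did not overlap for 20 of the lower and 3 of the higher Hox probes, where 12.1% and 12.9% of all probes tested were lower and higher without overlap. Taken over the 65 members, tested or not, the median difference was -1.35, against 0.36 over all probes.

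The share of tested probes that were lower was largest among central genes. Of 17 central probes tested, 14 were lower, and of these hoxc4aa, whose paralogue group patterns the hindbrain and neck region in mice, had the largest difference. It lay at -7.36, -7.16 and -6.48 (lowest, median and highest) in the 6 pubertal testes and at -3.10, -2.38 and -1.998 in the 14 immature testes. It was well above background in no pubertal and in every immature testis. The groups were far apart, and hoxc4aa was at least 15.5-fold lower in pubertal testes (log2 difference -4.66, SE 0.17, limma adjusted p = 1.8e-13). Its sister copy hoxc4ab was also detected in 0 of 6 pubertal and 14 of 14 immature testes and was at least 5.34-fold lower (adjusted p = 8.6e-11).

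For hoxc8aa, a trunk gene, both groups were measurable on every array. Levels were -2.82, -2.52 and -2.08 in pubertal testes, against -0.77, 0.32 and 1.69 in immature testes. The lowest immature testis was thus above the highest pubertal one, and the log2 difference was -2.90 (SE 0.26, adjusted p = 4.3e-09), a 7.44-fold lower signal. The same held for hoxb6ab, at -4.61, -4.27 and -3.71 in pubertal testes and -2.32, -1.32 and -0.31 in immature testes (log2 difference -2.86, SE 0.23, adjusted p = 7.5e-10). Its copy hoxb6aa differed by -3.14 and was well above background in 4 of 6 pubertal testes. The other lower central probes were hoxc6ba (-2.96), hoxa7aa (-2.81), hoxc6aa (-2.61), hoxc8ab (-2.61), hoxa5a (-2.41), hoxa5aa (-2.24), hoxc5ba (-1.61) and hoxb8aa (-1.35), as log2 differences, and hoxa7ab, which no pubertal and 6 of 14 immature testes had well above background and which was at least 1.23-fold lower. hoxc5ba and hoxb8aa were well above background in 1 of 6 pubertal testes each. With the authors' processed values the calls of hoxa7ab (-0.78, adjusted p = 0.16), hoxc5ba (-0.90, adjusted p = 0.42) and hoxb8aa (-0.05, adjusted p = 0.95) were lost, and that of hoxb8aa also without fish 202, 211 or 213 (adjusted p from 0.089 to 0.12). With normexp background correction, which adds an offset of 50 to every signal and so compresses dim ones, 10 of the 14 lower central calls were lost, and those of hoxc4aa, hoxc8aa, hoxb6aa and hoxb6ab were kept. In mice Hoxa5 is needed for lung development, and both of its salmon copies with a probe were lower here without overlap between the groups.

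Among anterior genes, 4 of 9 tested probes were lower and none was higher. hoxa3ab, a copy of a gene that shapes pharyngeal organs in mice, was well above background in all 20 testes. Its levels were -3.86, -3.15 and -2.67 in pubertal testes and -1.20, -0.03 and 0.33 in immature testes, with no overlap (log2 difference -3.02, SE 0.22, adjusted p = 2.2e-10, 8.13-fold). hoxb2ab differed by -3.20 and hoxd1aa by -2.66, with 2 and 1 of 6 pubertal testes well above background, and both calls were lost with normexp. That of hoxb2ab was also lost with the authors' processed values (-1.39, adjusted p = 0.074). hoxa2b, which patterns the hindbrain and pharyngeal arches in vertebrate embryos, fell by 1.21 on the log2 scale (adjusted p = 2.8e-04) with overlapping groups, and by 0.53 with normexp, under the limit on size. The other 5 anterior probes tested (hoxa3a, hoxb1aa, hoxb1b, hoxb3 and hoxd3ab) did not pass, with log2 differences from -0.64 to 0.67.

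Posterior genes moved in both directions, with 17 of 30 tested probes lower and 3 higher. The largest differences of the lower group were in cluster D. hoxd11a, from a paralogue group that acts in limb and kidney development in mice, was at -8.48, -7.59 and -6.29 in pubertal testes, none of them well above background. In immature testes it was at -4.77, -3.67 and -3.14, all of them well above background, so it was at least 6.14-fold lower in pubertal testes (log2 difference -3.84, adjusted p = 8.7e-11). hoxd11ab differed by -3.89, and the groups overlapped through the pubertal testis of fish 184 alone, at -4.39 against -8.45 to -7.38 in the other 5. hoxc11ba was at least 5.23-fold and hoxd12ab at least 3.41-fold lower, with 0 of 6 pubertal testes well above background for either. hoxc11ab, well above background in 0 of 6 pubertal and 10 of 14 immature testes, was at least 1.40-fold lower. Apart from hoxa10ab, given below, lower probes well above background in at least 3 of 6 pubertal testes were hoxa9b (-2.22), hoxa10b (-2.15), hoxc9aa (-1.70), hoxd10ab (-1.62) and hoxb9ab (-1.23), as log2 differences. In only 1 or 2 pubertal testes were hoxd11ab (-3.89), hoxd10a (-3.39), hoxd9ab (-2.66), hoxa13aa (-2.42), hoxa13 (-2.25) and hoxd9a (-1.04) well above background. With normexp, 16 of the 17 lower posterior calls and all 8 of cluster D were lost, among them hoxd11a (-0.47, adjusted p = 0.18) and hoxd11ab (-0.54, adjusted p = 0.12), and hoxc9aa was kept. With the authors' processed values the calls of hoxd10a (-1.35, adjusted p = 0.081), hoxc11ab (-0.96, adjusted p = 0.25) and the hoxa10ab probe on transcript NM_001130855 (-0.71, adjusted p = 0.10) were lost, and those of hoxd11a, hoxd11ab, hoxc11ba and hoxd12ab were kept. The call of hoxd9a was lost without fish 184, 190, 211 or 213 (adjusted p from 0.084 to 0.16), and its sign turned with the authors' processed values (0.93). The hoxa10ab probes gave -2.36 on transcript XM_014178301 and -2.12 on transcript NM_001130855, and were well above background in 5 and 2 of 6 pubertal testes. HOXA10, HOXA11 and HOXA13 are known for patterning the reproductive tract in mammals.

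**Figure D3:**
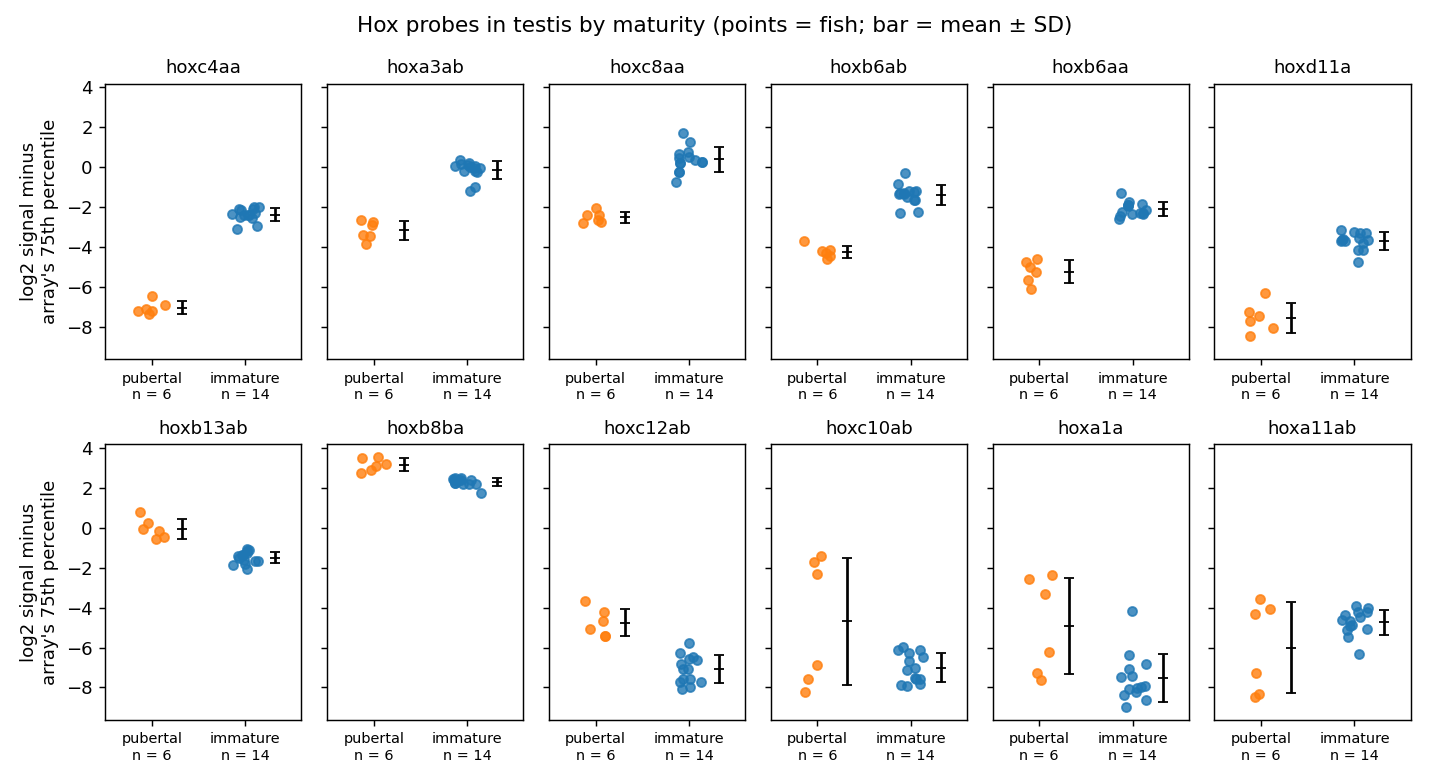
Levels of 12 Hox probes in pubertal (orange, left) and immature (blue, right) testes, as log2 signal relative to the 75th percentile of the array, 1 point per fish with a bar for the mean and standard deviation beside them. hoxc4aa, hoxa3ab, hoxc8aa, hoxb6ab, hoxb6aa and hoxd11a lie lower and hoxb13ab, hoxb8ba and hoxc12ab higher in pubertal testes with no overlap, and hoxc10ab, hoxa1a and hoxa11ab are spread widely among the 6 pubertal testes.

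hoxb13ab went the other way. Levels were -0.57, -0.12 and 0.76 in pubertal testes and -2.08, -1.45 and -1.08 in immature testes, well above background in all 20. The groups did not overlap, and the log2 difference was 1.44 (SE 0.18, adjusted p = 6.4e-07), a 2.72-fold higher signal. In mammals HOXB13 is known as the Hox gene of the prostate and hindgut region. hoxb8ba was at 2.76, 3.14 and 3.55 in pubertal testes and 1.73, 2.36 and 2.49 in immature testes, again without overlap (log2 difference 0.87, SE 0.14, adjusted p = 1.1e-05). This call was lost with quantile normalization (0.28), with the authors' processed values (0.36) and without fish 245, where the difference of 0.796 fell under the limit on size. hoxc12ab (2.34) and hoxc12aa (1.84), a pair of copies of the same gene on chromosomes 15 and 13, were higher too. Levels of hoxc12ab were -5.42, -4.87 and -3.68 in pubertal testes, 5 of 6 well above background, against -8.08, -7.08 and -5.77 in immature testes, 2 of 14 well above background. Both hoxc12 calls were lost with normexp background correction and with the authors' processed values.

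By cluster, 12 of 16 tested probes of cluster A and 8 of 9 of cluster D were lower and none was higher. In cluster B, 5 of 12 were lower and 2 higher, and in cluster C, 10 of 19 were lower and 2 higher. The cluster A copy on chromosome 27 had 6 of 7 probes lower, and the only exception, hoxa11ab, differed by -1.28 (adjusted p = 0.060). On chromosome 19, a cluster B copy, none of 4 tested probes was lower. Other probes that did not pass were hoxb7ab (-0.55, adjusted p = 0.019 but under the limit on size), hoxb6ba (-1.04, adjusted p = 0.064) and hoxa13b (-0.05), which was well above background in all 20 testes. Within light groups A and B alone (6 pubertal and 4 immature fish), 29 of the 34 calls that could be tested were kept, and the 5 lost were hoxa2b, hoxb8aa, hoxd10ab, hoxc12aa and the hoxa10ab probe on transcript NM_001130855. When each pubertal fish was left out in turn, 34 to 42 Hox probes were lower and 3 to 7 higher, with 7 higher when fish 190 was left out. With normexp background correction, 6 were lower and 2 higher (of all 35618 probes, 4313 and 5655). The share of Hox probes lower was then not above that of all probes. With the authors' processed values 28 Hox probes were lower and 2 higher. With those values all probes tested split into 5354 higher and 10132 lower, against 11347 higher and 9697 lower here.

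Pubertal testes differed from each other for a few probes. hoxc10ab was at -1.74, -1.43 and -2.30 in fish 245, 202 and 211, and at -7.56, -6.87 and -8.21 in fish 184, 190 and 213, with immature testes between -7.91 and -5.97. The labels put fish 202 at stage V, fish 184, 190, 211 and 245 at stage IV and fish 213 at stage III. In the histology overview of the study the fish high for this probe, and no others, are listed with spermatozoa as the most advanced cells, which for 2 of them differs from the label. hoxa1a, which patterns the hindbrain in mice, was at -2.57, -2.38 and -3.34 in the first 3 of these fish and at -7.65, -7.27 and -6.23 in the others, while immature testes were at -8.99 to -6.39 apart from fish 180 at -4.15. Both probes were well above background in 3 pubertal and 2 immature testes, 1 array short of the filter for the test. hoxa11ab (-4.06, -3.57 and -4.33 against -8.35, -7.28 and -8.47) and hoxb6ba (-4.70, -4.07 and -4.45 against -7.75, -7.18 and -8.49) were high in the same fish 245, 202 and 211 and low in 184, 190 and 213. Unlike hoxc10ab and hoxa1a, these probes were well above background in most immature testes (13 and 14 of 14). Their mean in pubertal testes was below that in immature ones. For hoxc4aa, hoxa3ab, hoxc8aa and hoxb13ab these fish were not separated in this way. These genes were singled out after their values were seen, and no test was made between the fish.

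Cell markers moved with maturity in the same arrays. All 4 testis somatic markers measured were lower in pubertal testes, with a summed level of 4.07 to 6.10 in pubertal and 6.73 to 7.52 in immature testes. Of 7 germ cell markers, 5 were higher and 1 lower (summed 7.86 to 8.33 in pubertal and 6.50 to 7.15 in immature testes). Of 4 leukocyte probes, 3 were lower and 1 higher (summed -2.34 to -0.35 in pubertal and 0.91 to 2.96 in immature testes). Both red cell markers were lower, hba at -1.48 and alas2 at -1.299 as log2 differences (summed 3.49 to 5.49 in pubertal and 1.52 to 6.75 in immature testes). Of 6 adipose marker probes tested, plin1 (-1.80), cidec (-1.74), pparg (-2.58) and cebpa (-3.60) were lower, lepa did not pass (0.23) and fabp4 was higher (3.04), and their summed level was 6.80 to 7.71 in pubertal and 4.29 to 6.44 in immature testes. The probes for plin1, cidec and cebpa were detected in all 6 pubertal and all 14 immature testes. Those for adipoqa and adipoqb were detected in 1 and 0 of 6 pubertal testes and in no immature testis. In adipose tissue itself, adipoqa was detected in 2 of 6 pubertal and 7 of 12 immature fish, and adipoqb in 0 and 1. Immature pituitaries gave an adipoqa signal in 11 of 14 fish. The amount of fat in testes was not tested. The part of all these cell markers in the Hox differences was not tested.

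Genes that act with or upstream of Hox genes were read from fixed lists. Among 4 probes for homeodomain partners, which bind DNA together with Hox proteins, pbx3b was higher (log2 difference 2.11, adjusted p = 1.3e-04), meis2a was lower (-2.73, adjusted p = 7.6e-10), pknox1.1 did not pass (0.57) and pknox2 was not tested. Of 4 upstream genes, 3 were lower: cdx1b (-3.14), a regulator of central Hox genes in embryos, the retinoic acid synthesising enzyme gene aldh1a2 (-2.53) and the retinoic acid receptor gene raraa (-1.38). The remaining one, rxrga, differed by 0.63, under the limit on size. Of 4 chromatin genes, ezh2, whose product writes the repressive mark that keeps Hox clusters silent, was higher (1.69, adjusted p = 2.6e-09), as was bmi1a (0.92), and kdm6a (0.65) and kdm6ba (-0.61) did not pass. Of the ParaHox genes gsx1, gsx2 and pdx1, which are related to Hox genes, only gsx1 was matched to a probe, and it was lower (-1.82). Its levels were near the floor, from -8.43 to -5.91 in pubertal and from -7.57 to -4.52 in immature testes.

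In the pituitary, only 13 Hox probes were bright enough to be tested, and none was called in pubertal against immature pituitaries without fish 184, also at an unadjusted p under 0.05, where 0.304% of all 34826 probes tested were called after adjustment and 1.66% before. Leaving out fish 160 and 250, counted here as immature, changed the calls over all probes from 95 higher and 11 lower to 242 and 61. They fell to 5 and 0 with scan batch as a block, 0 and 0 within the larger scan batch, and 2 and 0 in light groups A and B. All 6 pubertal pituitaries were scanned in 1 batch and 8 of 14 immature ones in another, so maturity and batch were partly confounded. hoxb8ba was at 2.58, 2.93 and 3.17 in 5 pubertal pituitaries and at 2.62, 3.03 and 3.40 in 14 immature ones, so that the groups overlapped. The difference between the tissues was tested itself. The maturity effect in testis minus that in pituitary was called for 37 of 60 Hox probes tested, 33 lower and 4 higher, against 23.2% lower and 28.8% higher over all 38277 probes tested. Of the 37, 22 were well above background on no pituitary array that entered. With normexp 4 were lower and 2 higher, with the authors' processed values 10 and 1 (of 39 tested), and within light groups A and B alone 16 and 1 (of 49 tested). Over all probes, normexp called 4000 lower and 5566 higher (of 38277), and the authors' values 8866 and 5088 (of 37512). Light groups A and B alone gave 5988 and 6848 (of 37067). With normexp and the authors' values the share of Hox probes lower was thus near or below that of all probes. Of the probes called and detected on at least 2 arrays of each of the 4 groups, the effect was -3.17 for hoxa3ab (SE 0.48, adjusted p = 7.8e-07), -1.53 for hoxa2b (adjusted p = 4.8e-04), -1.44 for hoxc9aa (adjusted p = 0.021), 0.99 for hoxb8ba (SE 0.18, adjusted p = 1.5e-05) and 1.56 for hoxc12ab (adjusted p = 0.018). The other higher ones, hoxa1a (2.32) and hoxc10ab (2.39), were well above background on no pituitary array.

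In adipose tissue, 33 Hox probes were tested between pubertal and immature fish within light groups A and B (6 against 4, with the light group as a block). None was called, as was none of the 32892 probes tested (0.0%). Of these, 4 had an unadjusted p under 0.05 and a difference over the limit, as had 6.81% of all probes: hoxd9ab (-1.89, unadjusted p = 0.0048, adjusted p = 0.65, and without overlap, as 0.231% of all probes), hoxb9ab (1.23), hoxa9b (1.84) and the hoxa10ab probe on transcript XM_014178301 (2.32). The last and hoxa9b also differed widely between adipose arrays of the same maturity group. The plain t-test of the study's methods, with no adjustment, called 1 higher and 1 lower of the 33, against 3.73% of all probes in either direction.

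Tissues were compared in fish with immature testes, among them fish 160 and 250. Between testis and pituitary, 44 of 49 tested Hox probes were higher in testis and 1 was lower, against 23.3% higher and 27.1% lower over 36028 probes. A probe could enter the test through its signal in testis alone. Of the 44, 21 were well above background on no immature pituitary array, and 7 on at least 7 of the 14 arrays of each tissue. For 32 of those higher the arrays of the tissues did not overlap, as for 13.6% of all probes, and over the 65 members the median difference was 2.72, against -0.18 over all probes. hoxc8aa lay between -0.77 and 1.69 (median 0.32) in testis and between -9.04 and -6.23 (median -7.52) in pituitary, where no array was well above background. It was at least 93.4-fold higher in testis (log2 difference 7.90, adjusted p = 2.0e-16). hoxb13ab was at least 24.2-fold, hoxb6aa at least 16.6-fold and hoxa5aa at least 16.2-fold higher. hoxb6ab differed by 5.92 and hoxa3ab, measured in 7 of 14 pituitaries, by 5.80. The cluster A copy on chromosome 27 was higher for 7 of 7 probes, with a median difference of 5.40.

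A few genes were close between testis and pituitary. hoxb8ba was somewhat lower in testis, at 1.73, 2.36 and 2.49 against 2.62, 3.03 and 3.40 in pituitary, without overlap (as 12.9% of all probes) but under the limit on size (-0.73). The smallest called differences by size were hoxa13b (0.81), hoxc11aa (0.86), hoxb9ab (0.87), hoxc12ba (-1.11) and hoxb7ab (1.52). hoxa13b was well above background on all 14 arrays of either tissue, and its call was lost with the scan batch as a block (0.66), with the authors' processed values (0.58), within the shared scan batch (0.32, adjusted p = 0.22) and with normexp (0.19, adjusted p = 0.53). hoxc12ba was the one probe called lower in testis, at -4.95, -3.14 and -0.36 against -4.55, -1.65 and 0.39 in pituitary (log2 difference -1.11, adjusted p = 0.042). With the fish as a block the adjusted p was 0.056, and within the 1 scan batch that held both tissues the difference was -0.85 (adjusted p = 0.27). The calls of hoxc11aa and hoxb9ab turned in sign with normexp (-0.015 and -0.018) and, for hoxb9ab, with the authors' processed values (-0.083). Those values also lost the call of hoxc11aa (0.72, adjusted p = 0.12). Within light groups D and E alone both calls were lost, at 0.76 for hoxc11aa (adjusted p = 0.093) and 0.15 for hoxb9ab (adjusted p = 0.73). With all fish and maturity as a covariate, hoxb9ab did not pass either (0.71, adjusted p = 0.059). With normexp 13 Hox probes were higher in testis (of all 36028 probes, 3987).

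Between testis and adipose tissue the direction of the difference varied with the paralogue number, with exceptions. In testis, 25 of 49 tested probes were higher and 14 lower than in adipose tissue, against 25.3% higher and 31.3% lower over all probes. A probe could enter the test through its signal in testis alone. Of the 25, 6 were well above background on no immature adipose array, and 7 on at least 7 of 14 testis and 6 of 12 adipose arrays. All 14 lower probes reached these counts in both tissues. Arrays of the tissues did not overlap for 7 of those higher and 4 of those lower, as for 12.4% and 6.66% of all probes. Posterior genes were mostly higher in testis (18 of 26 higher, 1 lower, with no overlap of the tissues for 5 of the 18), and anterior genes mostly lower (2 of 7 higher, 5 lower). Central genes were divided (5 of 16 higher, 8 lower). Across the 65 probes, tested or not, the difference and the paralogue number had a Pearson correlation of 0.49 and a Spearman correlation of 0.46, given as a description because the probes share arrays and lie in the same clusters. These correlations take in levels that are only upper bounds. The median difference was -2.78 for 3 probes of paralogue 2 and -2.16 for 4 of paralogue 5, against 1.61 for 7 of paralogue 10 and 1.94 for 7 of paralogue 11. By cluster, D had 7 of 9 probes higher and 2 lower, and B had 2 of 10 higher and 6 lower.

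**Figure D4:**
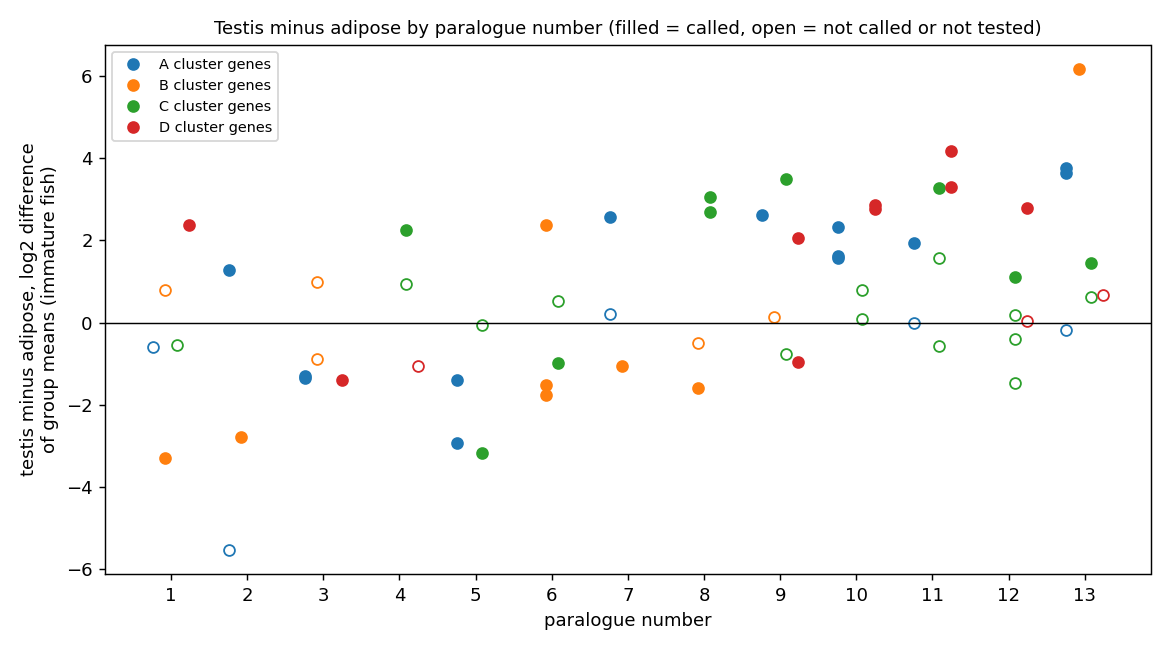
Mean level in immature testis minus mean level in immature adipose tissue for each of the 65 Hox probes (vertical axis, log2) by paralogue number (horizontal axis), filled where called by limma and open where not called or not tested. Points for paralogues 1 to 3 lie mainly below 0 and points for paralogues 10 and 11 mainly above 0, with hoxb13ab highest at 6.17.

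The posterior end was led by hoxb13ab, which lay at -2.08, -1.45 and -1.08 in immature testis and at -9.07, -7.73 and -6.28 in immature adipose tissue, where it was never well above background. It was at least 15.6-fold higher in testis (log2 difference 6.17, SE 0.26, adjusted p = 2.0e-23). hoxd11ab (at least 3.89-fold), hoxa13 (at least 3.11-fold) and hoxa13aa (at least 2.90-fold) were likewise detected on all testis and no adipose arrays. With normexp the calls of these 3 were lost, at 0.045 for hoxd11ab (adjusted p = 0.87) and with the sign turned for hoxa13aa (-0.12) and hoxa13 (-0.070). hoxc9aa differed by 3.49 (SE 0.44), with overlapping tissues and 10 of 12 adipose arrays well above background. The one posterior gene lower in testis was hoxd9a (-0.96).

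The anterior and central end was led by hoxb1aa, a copy of a hindbrain gene. It was at -6.22, -4.88 and -3.94 in immature testis and at -2.35, -1.76 and -0.32 in immature adipose tissue, without overlap (log2 difference -3.30, SE 0.24, adjusted p = 1.6e-15). hoxa5a was at -3.76, -2.86 and -2.08 in immature testis and at -0.31, -0.10 and 0.62 in immature adipose tissue, also without overlap (-2.93, SE 0.22, adjusted p = 3.5e-15). HOXA5 is known in mice and humans as a Hox gene of fat depots. hoxc5ba (-3.16), hoxb2ab (-2.78) and hoxb6aa (-1.76) followed. hoxa2aa was noticed after its values were seen. It was well above background on no testis or pituitary array and on 11 of 12 immature adipose arrays, 1 short of the filter. It was at least 18.4-fold lower in immature testis and at least 16.7-fold lower in immature pituitary than in immature adipose tissue, with no test. With normexp, 3 Hox probes were higher and 8 lower in testis than in adipose tissue. Over all 36028 probes, normexp called 3759 higher and 6267 lower, so neither Hox share was above that of all probes. When all fish entered with maturity as a covariate, 12 Hox probes were higher.

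Between pituitary and adipose tissue, 35 of 49 probes were lower in pituitary and 1 was higher, against 25.9% lower and 26.3% higher over all probes. Of the 35, 25 were well above background on at least 6 of the 12 adipose arrays. The other 10 were so on fewer arrays of either tissue and entered the test only through their signal in testis, so their differences are not given. With normexp 17 were lower and none higher (of all 36028 probes, 5272 and 4088). For 13 of those lower the arrays did not overlap, as for 8.88% of all probes. hoxa5a was at -8.93, -7.90 and -5.88 in immature pituitary, at or near the floor, and at least 71.6-fold lower than in adipose tissue (log2 difference -7.73, adjusted p = 3.5e-29). hoxb6aa was at least 56.2-fold lower, and hoxa5aa and hoxb2ab each at least 42.4-fold lower. hoxb6ab (-7.45), measured in 1 of 14 pituitaries, and hoxa3ab (-7.09), measured in 7, were lower as well. hoxb7ab, detected on every array, was at -2.63, -1.59 and -0.99 in pituitary and at 0.28, 0.97 and 1.28 in adipose tissue (-2.57, SE 0.15, adjusted p = 1.5e-18). Among the 5 smallest called differences, hoxa13b (-0.99) and hoxc9aa (-1.08) were measured in most arrays of either tissue, and neither call held with normexp (-0.60 and -0.66). That of hoxc9aa was also lost with the scan batch as a block (-0.94, adjusted p = 0.073). The other 3, hoxd1aa, hoxd11a and hoxc10aa, were each well above background in 1 of 14 pituitaries and in 2 or 3 of 12 adipose arrays.

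hoxc12ba was again the exception between pituitary and adipose tissue, at -4.55, -1.65 and 0.39 in pituitary and -4.32, -3.74 and -1.07 in adipose tissue (1.30, adjusted p = 0.023). With the fish as a block its adjusted p was 0.056, as was that of hoxd1aa, and without the adipose arrays of fish 233, 240 and 250 it was 0.060. All 3 tissue comparisons rest on the same arrays and are not independent of each other. Scan batches were uneven over tissues. With the scan batch as a block, 43 Hox probes were higher and 2 lower in testis than in pituitary, 21 were higher and 10 lower in testis than in adipose tissue, and 1 was higher and 38 lower in pituitary than in adipose tissue. Over all 36028 probes, that fit called 8122 higher and 9542 lower, 8475 and 10251, and 9446 and 9227 for these pairs in turn. Within the scan batch that held 8 immature arrays each of pituitary and adipose tissue, 20 Hox probes were tested, of which 1 was higher and 13 lower, against 26.8% higher and 23.2% lower over 33161 probes. No batch gave a within-batch value for testis against adipose tissue, since the 1 they share held 1 immature adipose array.

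Adipose arrays differed from each other in blocks of Hox genes. hoxa7aa was at 0.52 and -0.49 in pubertal fish 184 and 190 and at -0.24, -0.56 and 0.09 in immature fish 180, 193 and 198, and between -7.71 and -3.73 on the other 14 adipose arrays. The hoxa10ab probe on transcript XM_014178301 was between -1.04 and -0.02 on the same 5 arrays, and between -6.34 and -3.47 on the others. hoxa9b was at -2.92 to -1.61 on these 5 and as high only on the array of fish 176 (-1.21). On the same 5 arrays hoxa2b was between -1.57 and -0.62. hoxa7aa and hoxa10ab lie in the cluster A copy on chromosome 27, and hoxa9b and hoxa2b in the copy on chromosome 2. hoxa2b was also at -0.99 and -0.95 on the arrays of fish 250 and 233. Both maturity groups and 2 light groups are among these 5 arrays.

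A block of cluster C genes was low on other adipose arrays. hoxc8aa was at -5.42, -7.28, -6.31 and -4.85 on the arrays of fish 211 of group B, 250, 233 and 240, and between -3.00 and 0.01 on the other 15. hoxc4aa was at -5.80, -7.69, -6.60 and -6.93 on these 4 arrays, and of the others only that of fish 180 came near (-6.29). hoxc6aa was at -5.86, -6.58, -6.26 and -4.88 on them. They are the 4 arrays with the highest summed exocrine pancreas markers, and the kidney marker slc12a3 was at 0.64, 1.36, 0.05 and -0.19 on them and at most -1.27 on the other 15. The part of such tissue in these levels was not tested. hoxa5a, in contrast, stayed between -0.58 and 0.62 over all 19 adipose arrays, hoxb7ab between 0.05 and 1.43 and hoxb6aa between -1.46 and 0.78.

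**Figure D5:**
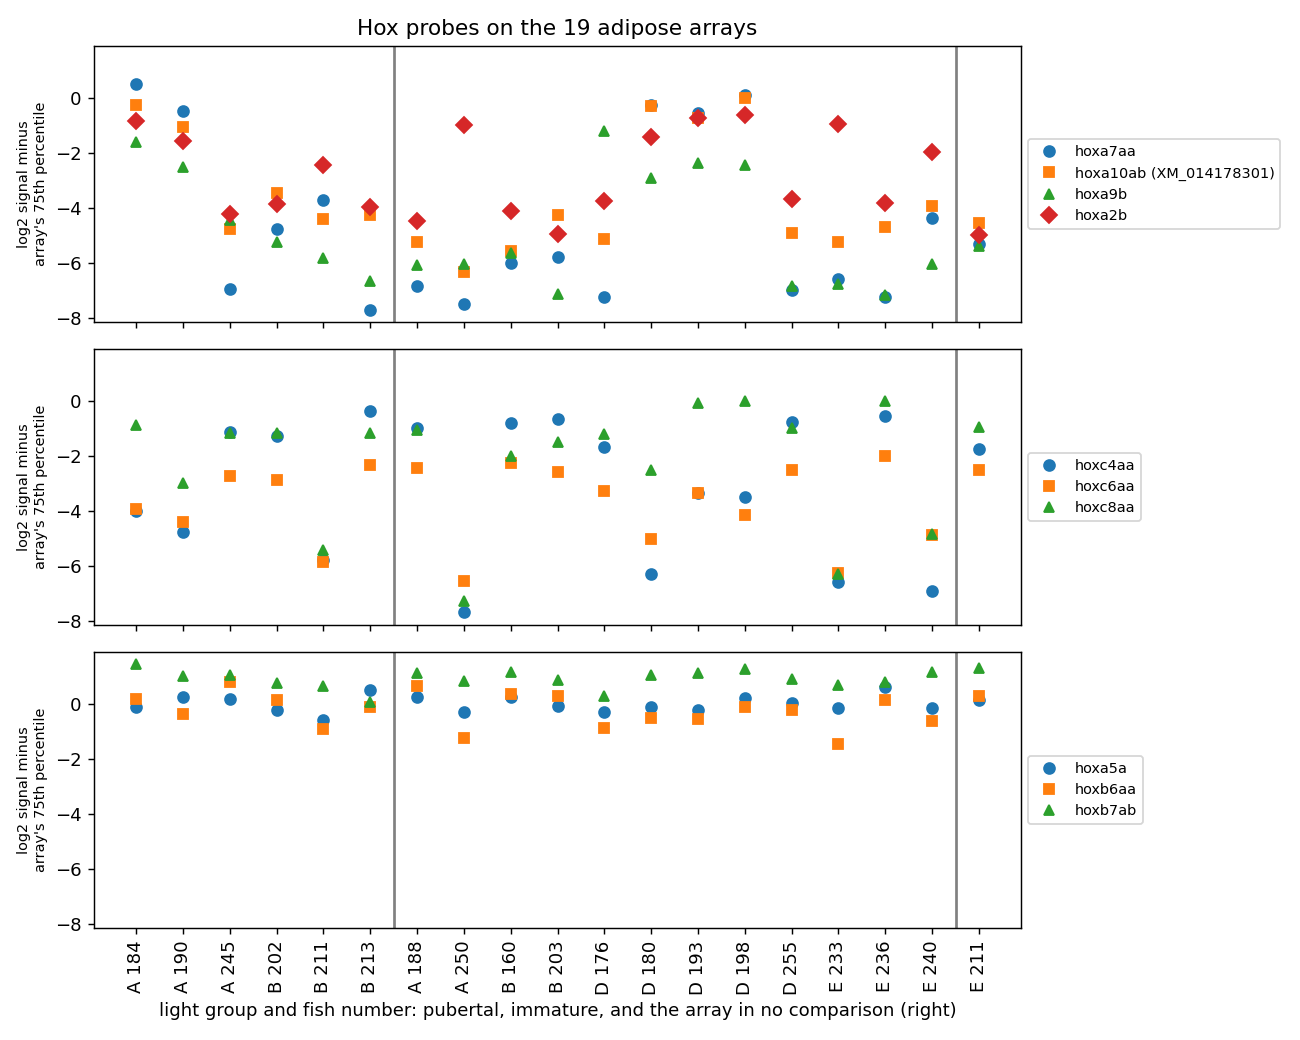
Levels of 10 Hox probes on the 19 adipose arrays (horizontal axis, 1 position per fish, pubertal fish left of immature fish; vertical axis, log2 signal relative to the 75th percentile of the array). hoxa7aa, hoxa10ab, hoxa9b and hoxa2b are high together on 5 arrays (hoxa2b also on those of fish 250 and 233), hoxc4aa, hoxc6aa and hoxc8aa are low together on 4 other arrays, and hoxa5a, hoxb6aa and hoxb7ab vary little.

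Adipose tissue of fish 202 was the one adipose array with hoxb13ab well above background (-3.74, against -9.07 to -5.57 on the other 18). It is the array on which testis somatic and germ cell markers were raised. Their part in the level of hoxb13ab was not tested.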

How the data were processed

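Scanner files deposited by the authors hold a spot intensity from which Agilent Feature Extraction 12.0.1.1 had taken background and spatial trends, with no scaling between arrays. They also deposited processed intensity values of the same arrays, whose scaling is not stated. These correlated with the scanner values at 0.981 to 0.998 and were used as an alternative only.

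Of 43855 spots per array, 42438 were not controls and stood for 42386 probes. The log2 of the processed signal minus the 75th percentile of the array was used, outlier spots were left out and duplicate spots averaged. No Hox spot was saturated. Array number limits the precision. Probes were joined through RefSeq accessions to the Ssal_v3.1 gene table, and 25420 (60.0%) found a gene.

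limma 3.58.1 (R 4.3.3; lmFit and eBayes, two-sided) was fitted to every probe that as many arrays as the smaller group contains marked well above background, with Benjamini-Hochberg adjustment over all such probes. A call needed an adjusted p below 0.05 together with a difference above 0.8 on the log2 scale. Tables were read with data.table (version 1.17.8), and summaries and figures were made in Python 3.11.15 with pandas 2.3.3 and matplotlib 3.10.9. Each model was run on simulated data with independent normal noise per probe. Those data held no shared fish, scan batch or background floor, so that run cannot speak to these limits. An "at least" fold sets the mean of the bright group against the dim group's mean of, per array, the higher of its own signal and the lowest signal among probes well above background. Tissues were compared in 1 fit over immature fish. The labels give the same fish number to the tissues of 1 fish, so fish as a block was an alternative there.

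Alternatives were quantile normalization, normexp (offset 50), median scaling, the processed values of the authors, no filter or a stricter one, a limit of 1, unadjusted p, the methods' t-test, slide, scan batch and fish as blocks, light groups alone, and the leaving out of fish. For the tissue comparisons, scan batch and the leaving out of the adipose arrays of fish 233, 240 and 250 were chosen after seeing the data. The testis array of fish 226 carries 236 in its identity tag and was used as its title says. Named genes were every Hox probe called for maturity in the testis, the 5 largest and 5 smallest called differences per tissue pair, and probes detected on all arrays of 1 immature tissue and none of another. Hox members, related genes and markers were chosen with earlier results of these data known.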

Additional observations from a re-analysis of the deposited data

Results flagged for a closer look

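Dixon's test for a sample far from the rest of its group was made for 109 combinations of a Hox probe and a group, and 8 passed, where chance gives about 1 in 20. In pubertal testes, hoxd3ab was highest in fish 202, at -2.73 against -4.08 to -3.69 in the other 5. In pubertal adipose tissue, fish 211 was highest for hoxa13b (-2.03 against -4.12 to -3.38) and hoxb8aa (-1.78 against -4.92 to -3.76), and lowest for hoxa2aa (-3.53 against -2.14 to -1.39). That array was the dimmest of its group, with 55.4% of all probes well above background against 70.3% to 79.4%. Its lowest signal among such probes was -3.62, against -6.81 to -5.09, and hoxa2aa was not well above background on it. The part of dimness in these levels was not tested. In the 4 immature adipose samples of light groups A and B, fish 250 was lowest for hoxc4aa (-7.69 against -0.995 to -0.65), hoxc6aa (-6.58 against -2.60 to -2.26) and hoxc8aa (-7.28 against -2.02 to -1.06), and fish 188 was lowest for hoxd3ab (-4.68 against -3.22 to -2.93).

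The maturity effect differed between testis and pituitary by limma's interaction test, with 33 Hox probes lower and 4 higher in testis relative to pituitary. Over all probes tested, 23.2% were lower and 28.8% higher. Of the 37 Hox probes called, 22 were well above background on no pituitary array that entered. Within light groups A and B alone, 16 Hox probes were lower and 1 higher. With normexp or the authors' processed values, the share of Hox probes lower was near or below that of all probes, as given above. Probes that passed and were well above background on at least 2 arrays of each of the 4 groups were hoxa3ab (-3.17, adjusted p = 7.8e-07), hoxa2b (-1.53, adjusted p = 4.8e-04), hoxc9aa (-1.44, adjusted p = 0.021), hoxb8ba (0.99, adjusted p = 1.5e-05) and hoxc12ab (1.56, adjusted p = 0.018). Adipose samples of fish 211 and 250 were also among the 4 with the highest exocrine pancreas markers, whose part in these levels was not tested.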

How the results depend on the processing

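Of all settings, normexp lost the most calls in testis maturity (31 of 39), and its offset of 50 compresses dim signals by construction. The part of dimness in these losses was not tested. With normexp the Hox counts (higher and lower) became 2 and 6 in testis maturity, 13 and 0 in testis against pituitary, 3 and 8 in testis against adipose tissue, 0 and 17 in pituitary against adipose tissue, and 2 and 4 for the interaction of maturity with tissue (testis or pituitary). Over all probes (35618 tested) normexp called 5655 higher and 4313 lower in testis maturity. In the 3 tissue pairs (36028 tested) it called 3987 and 4277, 3759 and 6267, and 4088 and 5272. For the interaction (38277 tested) it called 5566 and 4000. With normexp the Hox share was above that of all probes only as higher in testis than pituitary and lower in pituitary than adipose tissue. In sign, hoxc11aa (-0.015) and hoxb9ab (-0.018) turned in testis against pituitary and hoxa13aa (-0.12) and hoxa13 (-0.070) in testis against adipose tissue. With the authors' processed values, 2 probes were higher in testis maturity, 2 lower in testis against pituitary, 16 higher in testis against adipose tissue, and 1 higher and 10 lower for the interaction. hoxd9a turned to 0.93 in testis maturity and hoxb9ab to -0.083 in testis against pituitary. The median difference of all probes tested in testis maturity was 0.29, with 0.16 after quantile normalization, 0.37 after median scaling, 0.11 with normexp and -0.10 with the authors' values. Of the 39 Hox calls in testis maturity, 8 were kept with normexp, 28 with the authors' values and 38 with quantile normalization.

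With the filter on every array of a group, 2 were higher in testis maturity and 1 for the interaction. Leaving out pubertal fish in turn gave 3 to 7 higher and 34 to 42 lower in testis maturity, and 0 calls in the pituitary and adipose tissue. In adipose tissue, 3 were higher and 1 lower at an unadjusted p, and 1 and 1 with the methods' t-test. Lower in testis than in pituitary were 0 with median scaling and 2 with no filter, with light groups D and E alone, with scan batch as a block and without the adipose arrays of fish 233, 240 and 250. With all fish, 12 were higher in testis than in adipose tissue and 0 in pituitary than in adipose tissue. Without the 3 adipose arrays, 0 were higher in pituitary, and within the shared scan batch 13 were lower. For the interaction, median scaling gave 7 higher, and light groups A and B alone 1 higher and 16 lower.

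With the fish number as a replicate block, 44 Hox probes were higher and 0 lower in testis than in pituitary, 24 and 14 in testis than in adipose tissue, and 0 and 34 in pituitary than in adipose tissue. The calls of hoxc12ba and hoxd1aa were lost (adjusted p = 0.056 each), and of the other named Hox probes none. As a random block for the interaction it gave 6 higher and 33 lower.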
